A study of Mus musculus with 6 samples.

Results

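Interferon-stimulated genes are described here in neutrophils from the bone marrow (BM) of tumor-free and tumor-bearing mice. The list held 39 genes taken by name as known targets of interferon, out of 38887 genes in the deposited count table. This list and the other gene lists below were chosen with earlier results of these data known. Shares of a list set beside those of all genes are therefore descriptions and no test. All 39 had enough reads to be tested, among 12259 genes that did. The cells were selected with Ly6G beads, Ly6G being a surface marker of mouse neutrophils. There were 3 groups of 2 libraries: naive mice without a tumor, mice at week 1 after receiving LL2 cells, and mice at week 3. LL2 is a mouse lung carcinoma line, here carrying luciferase, that forms lung tumors after intravenous injection, so that the groups model growth of 1 transplanted line. The mice were of the C57BL/6 background, and the methods describe young mice, female and male, for the study as a whole, without tying an age or sex to these libraries. The labels number the libraries of a group as replicate mice, and the numbers do not pair mice between groups.

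Cells that sense a virus secrete type I interferons, which bind the receptor made of Ifnar1 and Ifnar2 and activate the kinases Jak1 and Tyk2. The kinases activate a complex that holds Stat2 and Irf9 and binds interferon-stimulated response elements in the promoters of target genes. Interferon gamma acts through Ifngr1 and Ifngr2 with Jak1 and Jak2, and leads to binding at gamma-activated sites. The products of the target genes sense foreign RNA and DNA, block viral replication, attract lymphocytes and adjust the response itself. A weak tonic signal keeps many of these transcripts present in unstimulated cells.

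Interferon-stimulated genes were close to their naive level in 1-week LL2 mice and lower in 3-week LL2 mice. Levels are given as CPM, counts scaled to the library total after correction with TMM factors, and fold changes as log2 ratios. Their standard error (SE) is an approximation, the absolute log2 fold change divided by the square root of the F statistic of edgeR's quasi-likelihood test. A gene was called changed when its Benjamini-Hochberg adjusted p-value over all 12259 genes was under 0.05. Summed over the 39 genes, the level was 2168 and 2363 CPM in the naive libraries, 2088 and 1887 CPM at week 1, and 1346 and 1657 CPM at week 3. Both 3-week libraries thus lay below all 4 others. The sum depends on which genes are on the list. Ifitm1, an interferon-stimulated gene outside it, had a mean of 194 CPM in naive mice and 2554 CPM at week 3. Of the 39 genes, 17 were called in neither comparison with week 3. The share of all counts that fell on these genes was 0.229% and 0.234% in naive mice, 0.224% and 0.198% at week 1, and 0.123% and 0.154% at week 3.

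**Figure D1:**
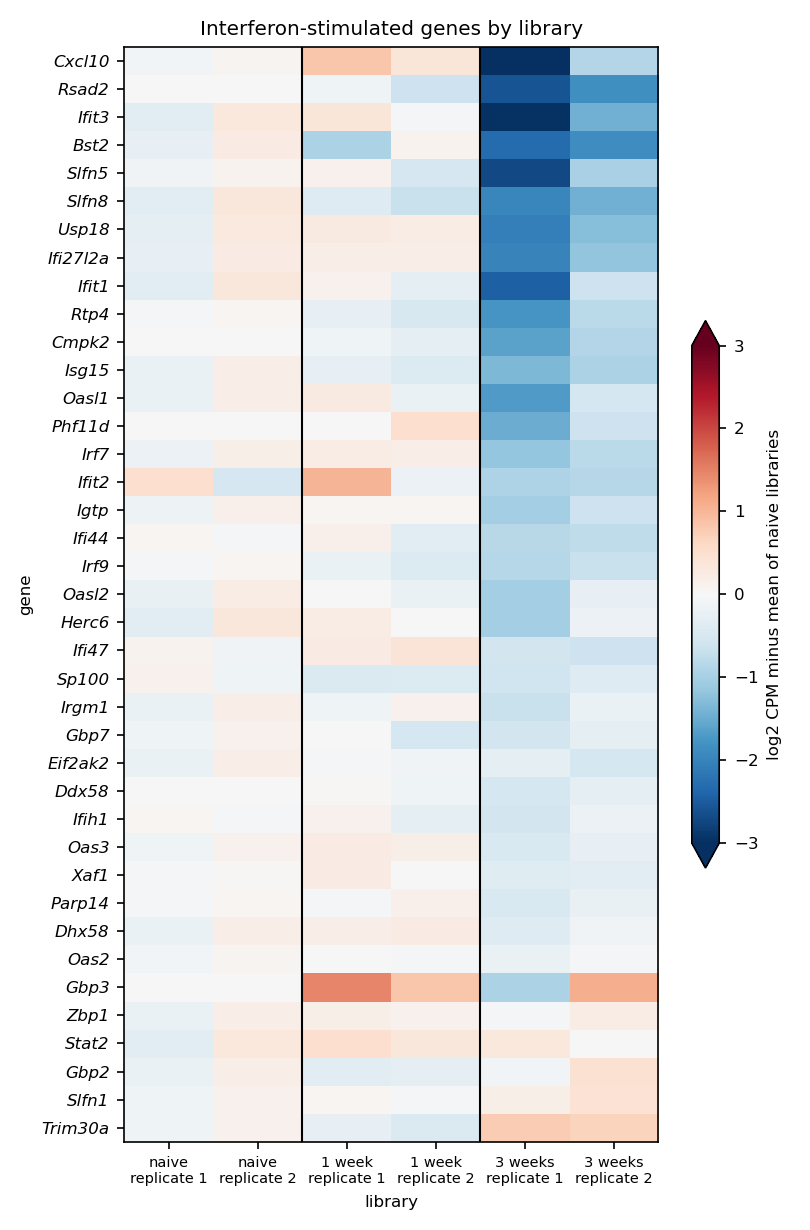
Heat map of the 39 genes (rows) in the 6 libraries (columns), as log2 CPM minus the mean of the 2 naive libraries; values beyond 3 in either direction take the end color. The columns of week 3 are mostly blue, with medians of −0.93 and −0.52 over the genes, and Trim30a at the bottom is red in both.

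In 1-week LL2 mice, 0 of the 39 genes differed from naive mice in edgeR's test. Among all genes tested, 4.23% were called higher and 3.76% lower in that comparison. At an unadjusted p-value under 0.05 there were 5, namely Irf9, Isg15, Slfn8, Trim30a and Sp100, all with lower values at week 1 (12.8%, beside 23.2% of all genes). DESeq2 called 1 gene, Sp100, as lower. The median log2 fold change of the 39 was −0.01, beside 0.01 for all genes, and 20 estimates were below 0 and 19 above.

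In 3-week LL2 mice, 18 of the 39 genes were lower than in naive mice (46.2%), and 1, Trim30a, was higher. Of all genes tested, 9.42% were lower and 12.0% higher. The median log2 fold change of the 39 was −0.60, beside 0.03 for all genes, and single genes ranged from −2.17 for Rsad2 to 0.71 for Trim30a. The count of genes lower fell to 11 without naive replicate 2 and to 10 without 3-week replicate 1, whereas Trim30a was called higher without any 1 of the 6 libraries.

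Between 3-week and 1-week LL2 mice, 19 genes were lower at week 3 (48.7%) and Trim30a was higher, beside 9.56% lower and 13.0% higher of all genes tested. The median was −0.75, beside −0.02 for all genes, with a range from −2.39 for Cxcl10 to 1.06 for Trim30a. The count of genes lower was 12 without 1-week replicate 1 and 9 without 3-week replicate 1. The comparisons with naive and with 1-week mice share the 3-week libraries, so their results are not separate evidence. Of the 39 genes, 26 had both 3-week libraries below the other 4 (66.7%, beside 17.5% of all genes tested), 2 had both above, Slfn1 and Trim30a (20.2% of all genes), and 11 overlapped.

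**Figure D2:**
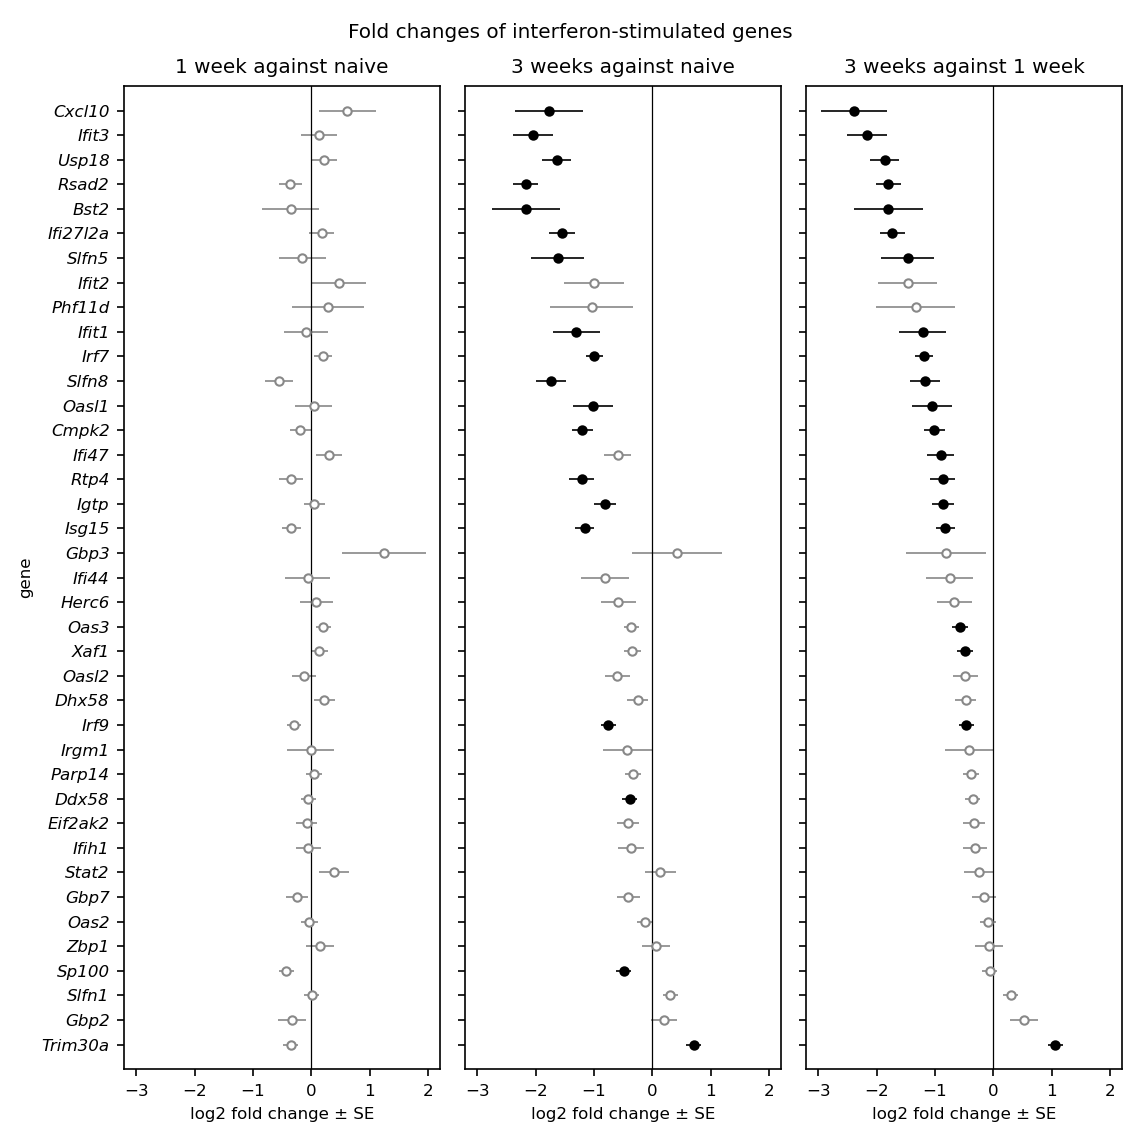
Log2 fold change ± SE (x axis) of each gene (rows, ordered by the change from week 1 to week 3) in the 3 comparisons; filled points passed adjusted p under 0.05. Filled points are absent at week 1 against naive, while 18 lie left of 0 at week 3 against naive and 19 at week 3 against week 1.

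The promoters were searched for the core of the interferon-stimulated response element, written as GAAA, any 2 bases, and GAAA again, on both strands and with overlapping matches kept. RefSeq windows of GRCm38.p6, from 250 bases before to 50 after a start site, were at hand for 32 of the 39 genes, with 38 windows in all. The core was found in 19 of the 32 genes, in 21 of these windows (55.3%), beside 3.44% of 32851 windows of all genes. A gamma-activated site, TTCNNNGAA, was in 5 of them (13.2%), beside 8.3% of all windows. A match of letters does not show that a factor binds. The core stood in windows of 10 of the 16 genes with a window that were lower at week 3 than at week 1, and of 8 of the 15 that were not called. Windows are shown, with the matches to the core in capitals, for genes with the smallest adjusted p-values from week 1 to week 3 and for Isg15. Genes without a window, such as Ifi27l2a and Usp18, were passed over. Only 1 gene per family was taken, so Cmpk2 is not shown beside Rsad2. Rsad2 (chr12:26456403-26456702, minus strand) has 1 match that begins 120 bases before the start. Ifit3 (chr19:34583279-34583578, plus strand) has matches at 156 and 122 bases before the start, and Isg15 (chr4:156200769-156201068, minus strand) has 3 that overlap, at 78, 72 and 66 bases. Irf7 (chr7:141266375-141266674, minus strand) has none in this window, and Trim30a (chr7:104465144-104465443, minus strand) has 1 at 36 bases, in the outer of its 2 windows. The sequences run from 5′ to 3′ on the strand of the gene.
Rsad2: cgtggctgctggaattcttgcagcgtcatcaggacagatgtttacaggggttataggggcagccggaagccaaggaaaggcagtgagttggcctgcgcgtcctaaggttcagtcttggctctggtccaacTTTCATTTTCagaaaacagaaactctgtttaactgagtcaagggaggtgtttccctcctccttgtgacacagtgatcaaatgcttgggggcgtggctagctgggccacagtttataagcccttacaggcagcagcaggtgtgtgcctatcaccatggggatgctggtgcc
Ifit3: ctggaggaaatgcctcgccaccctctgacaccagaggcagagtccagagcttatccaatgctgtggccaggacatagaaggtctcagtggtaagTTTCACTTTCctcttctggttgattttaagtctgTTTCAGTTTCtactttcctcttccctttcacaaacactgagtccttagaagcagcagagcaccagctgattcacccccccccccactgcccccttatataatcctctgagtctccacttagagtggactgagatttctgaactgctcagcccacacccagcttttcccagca
Isg15: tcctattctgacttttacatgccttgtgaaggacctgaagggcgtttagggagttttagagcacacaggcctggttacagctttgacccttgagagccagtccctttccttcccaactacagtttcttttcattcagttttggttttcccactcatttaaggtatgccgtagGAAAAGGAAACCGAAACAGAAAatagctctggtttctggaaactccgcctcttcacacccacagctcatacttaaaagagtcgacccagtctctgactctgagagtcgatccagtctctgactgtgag
Irf7: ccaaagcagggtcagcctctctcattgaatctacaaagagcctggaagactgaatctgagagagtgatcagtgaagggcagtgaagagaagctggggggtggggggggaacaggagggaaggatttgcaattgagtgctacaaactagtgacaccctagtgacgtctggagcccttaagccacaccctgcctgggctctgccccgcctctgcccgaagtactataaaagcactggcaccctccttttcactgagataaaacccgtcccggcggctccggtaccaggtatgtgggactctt
Trim30a: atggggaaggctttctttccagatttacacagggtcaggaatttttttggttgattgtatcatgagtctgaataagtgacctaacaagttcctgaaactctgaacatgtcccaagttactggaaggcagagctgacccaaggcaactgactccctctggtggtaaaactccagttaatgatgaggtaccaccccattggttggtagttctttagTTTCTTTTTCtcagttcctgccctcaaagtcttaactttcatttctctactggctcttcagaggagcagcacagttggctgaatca

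Of the 4 genes that carry or restrain the interferon signal, Irf7, Irf9 and Usp18 were lower at week 3 than in both other groups. Stat2 was not called. Over all genes tested, 9.42% were lower at week 3 than naive and 9.56% lower than at week 1. Irf7 (ENSMUSG00000025498, chr7:141262706-141266481) encodes a transcription factor that switches on interferon genes. Its level was 42.9 and 54.4 CPM in naive mice, 56.3 and 55.7 CPM at week 1, and 21.5 and 27.3 CPM at week 3. The 3-week libraries were the lowest, with log2 fold changes of −0.99 ± 0.15 against naive (adjusted p = 5.68e-04) and −1.19 ± 0.15 against week 1 (adjusted p = 1.31e-04). Usp18 (ENSMUSG00000030107, chr6:121245906-121270917) encodes a protease that removes ISG15 from proteins and damps signaling at the receptor. It had 12.9 and 19.4 CPM in naive mice, 19.1 and 18.5 CPM at week 1, and 3.8 and 6.53 CPM at week 3. This was 3.12 times lower than naive (adjusted p = 5.55e-04) and 3.64 times lower than week 1 (adjusted p = 1.81e-04). Irf9, the DNA-binding partner of Stat2, fell by less, from 126 and 139 CPM in naive mice to 115 and 100.4 CPM at week 1 and 73.4 and 83.6 CPM at week 3. Its call against week 1 (adjusted p = 0.019) was lost without 1-week replicate 1 or 3-week replicate 1, and over the 12 alternatives its adjusted p reached 0.16. Stat2 had between 4.43 and 7.87 CPM in the 6 libraries, with no order between groups beyond their spread.

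Of the 5 sensors of foreign nucleic acid, 1 was called lower at week 3 than in naive mice and 0 than at week 1. The shares of all genes tested were 9.42% and 9.56%, and counts this small do not set the sensors apart. Ddx58, which encodes the RNA sensor RIG-I, had 73.6 and 73.4 CPM in naive mice, 75.4 and 66.8 CPM at week 1 and 51 and 60.9 CPM at week 3, and was called lower at week 3 than in naive mice (−0.39 ± 0.13, adjusted p = 0.0467). That call did not hold with a block for the replicate number, nor without 3-week replicate 1 or either naive library. Ifih1 (the sensor MDA5), Dhx58 (its relative LGP2), Zbp1 (a sensor of Z-form nucleic acid) and Eif2ak2 (the kinase PKR) were not called in either comparison with week 3. Dhx58 shares reads with an antisense gene, Dhx58os, on 2.9% of its 50-base sequences, and the strand setting of the counting was not given in the sources used here.

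Among the IFIT genes, whose products bind viral RNA, Ifit3 and Ifit1 were lower at week 3 and Ifit2 had few reads. Ifit3 (ENSMUSG00000074896, chr19:34583531-34588731) had 32.9 and 50.7 CPM in naive mice, 52.3 and 38.9 CPM at week 1, and 5.19 and 15.1 CPM at week 3. It was 4.12 times lower at week 3 than in naive mice (log2 −2.04 ± 0.34, adjusted p = 9.17e-04) and 4.5 times lower than at week 1 (log2 −2.17 ± 0.34, adjusted p = 5.27e-04). Without 3-week replicate 2 these were −3.00 and −3.12, and without 3-week replicate 1 −1.46 and −1.59, all 4 of them called. Of its distinct 50-base sequences, 51.2% also occur in the neighboring copy Ifit3b, so that the split of reads between both is uncertain. Ifit3b itself was lower at week 3 than naive by −2.51 ± 0.41 and lower than at week 1 by −1.98 ± 0.42 on the log2 scale. Ifit1 had 9.72, 15.8, 13.5 and 10.4 CPM in the naive and 1-week libraries, and 2.25 and 8.07 CPM at week 3. Its calls (adjusted p = 0.034 and 0.0446) were lost under DESeq2, against naive also without either naive library or 3-week replicate 1, and against week 1 without any single library other than 3-week replicate 2. Over the 12 alternatives the adjusted p reached 0.259 and 0.302. Its log2 fold changes of −1.30 ± 0.40 and −1.21 ± 0.40 became −0.65 and −0.55 without 3-week replicate 1, and −2.49 and −2.39 without 3-week replicate 2. Ifit2 had 14 and 15 counts at week 3 and between 18 and 65 counts in the other libraries, and was not called (adjusted p = 0.0522 against week 1).

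**Figure D3:**
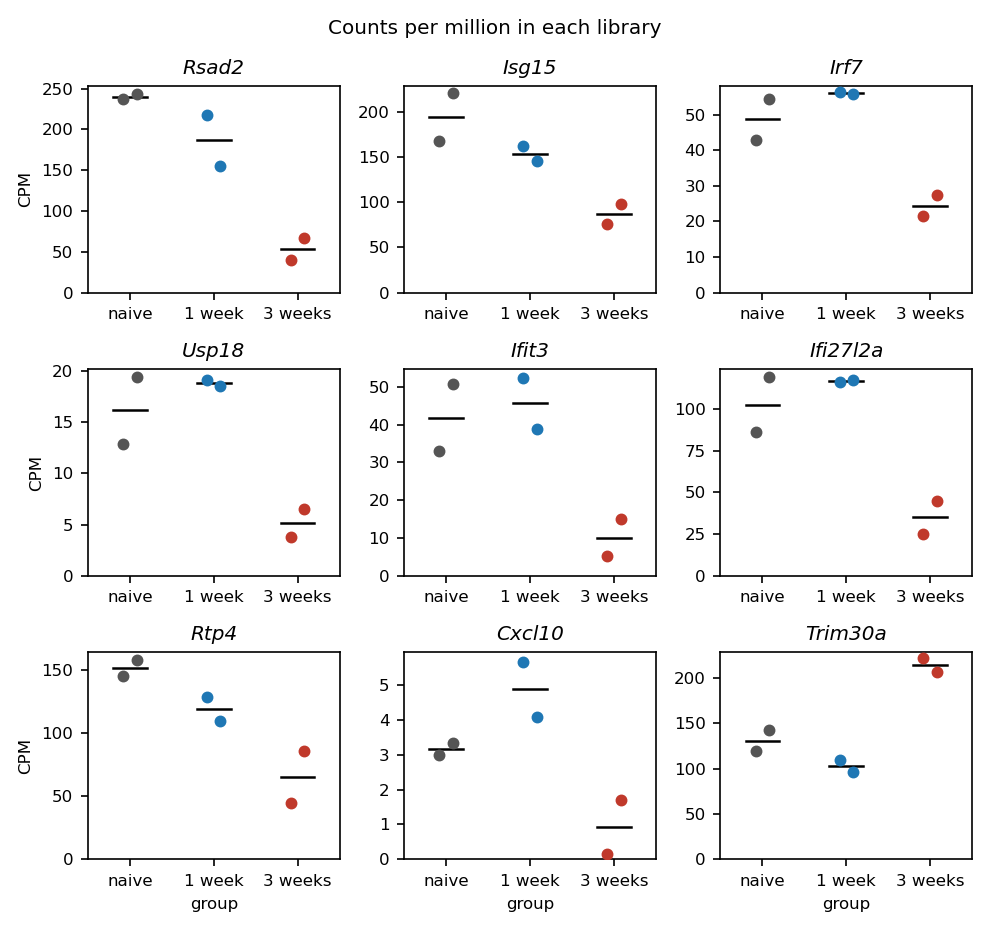
CPM (y axis, from 0) of 9 genes in the 2 libraries of each group (points; x axis), with group means as bars. The 3-week points lie below all others in 8 panels and above all others for Trim30a, at 222 and 207 CPM.

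Oas2 and Oas3 encode oligoadenylate synthetases, which make the second messenger that activates RNase L, and Oasl1 and Oasl2 are relatives in that family. Oas3 (log2 −0.57 ± 0.13, adjusted p = 0.00741) and Oasl1 (−1.05 ± 0.34, adjusted p = 0.0388) were lower at week 3 than at week 1, and Oasl1 also against naive (−1.01 ± 0.34, adjusted p = 0.0492). Oas3 had 94.5 and 90.7 CPM at week 1 and 58 and 67.2 CPM at week 3, beside 73 and 87.2 CPM in naive mice. Oas2 had 26.3 to 32.3 CPM in all 6 libraries. Oasl2 was not called, with 29.6 and 50.9 CPM at week 3 and 51.2 to 70.7 CPM elsewhere. The call of Oas3 was lost without 3-week replicate 1. Those of Oasl1 were lost under DESeq2, with only the 2 groups compared, and without naive replicate 2, 1-week replicate 1 or 3-week replicate 1, and against naive also without naive replicate 1. Without single libraries its log2 fold change ran from −1.73 (without 3-week replicate 2) to −0.53 against naive and from −1.76 (without 3-week replicate 2) to −0.56 against week 1.

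Rsad2 showed the clearest fall of the list. The gene (ENSMUSG00000020641, chr12:26442746-26456452) encodes viperin, an enzyme that makes a chain-terminating nucleotide. It had 237 and 243 CPM in naive mice, 218 and 155 CPM at week 1, and 39.6 and 67.4 CPM at week 3. Both 3-week libraries were below the lowest of the others, with a mean 4.49 times lower than naive (log2 −2.17 ± 0.21, adjusted p = 1.56e-05) and 3.49 times lower than week 1 (log2 −1.80 ± 0.21, adjusted p = 6.14e-05). Cmpk2, a mitochondrial nucleotide kinase gene next to Rsad2 on the chromosome (chr12:26469204-26479837), had 102, 101, 93.1 and 85.1 CPM in naive and 1-week mice, and 33.2 and 55.2 CPM at week 3. Its log2 fold changes were −1.20 ± 0.18 and −1.01 ± 0.18 (adjusted p = 4.84e-04 and 0.00153). Both genes had 0% of their 50-base sequences in other genes.

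Isg15 (ENSMUSG00000035692, chr4:156199424-156200818), which encodes a ubiquitin-like protein, had 167 and 221 CPM in naive mice, 162 and 145 CPM at week 1, and 75.4 and 98.4 CPM at week 3. It fell by 1.16 ± 0.16 on the log2 scale against naive (adjusted p = 2.37e-04) and by 0.82 ± 0.16 against week 1 (adjusted p = 0.00243), and both calls held under all 12 alternatives. Herc6, a ligase that attaches ISG15 to proteins in the mouse, had 3.49 to 9 CPM and was not called. Per length, Isg15 was the most abundant gene of the list in naive mice, at 257 RPKM, a level scaled to the length of its annotated exons and to depth, followed by Ifi27l2a at 222, Slfn1 at 89.3 and Rtp4 at 71.1 RPKM. At week 3 these levels were 115, 75.5, 111 and 30.6 RPKM. Gbp3 and Phf11d were the lowest in naive mice, at 0.148 and 0.161 RPKM. These lengths take all annotated exons of a gene and are not those of the transcripts in use.

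Of the 6 interferon-inducible GTPases, which act on the membranes around intracellular microbes, 2 were lower at week 3 than at week 1. The share of all genes tested was 9.56%. Igtp had 15.2 and 19.1 CPM in naive mice, 17.7 CPM in both 1-week libraries, and 8.37 and 11.1 CPM at week 3 (log2 −0.86 ± 0.19 against week 1, adjusted p = 0.0053; −0.81 ± 0.19 against naive, adjusted p = 0.00831). Without 3-week replicate 1 neither call held, and that against naive was also lost without naive replicate 2. It shares 11.8% of its 50-base sequences with Irgm2. Ifi47 had 7.67 and 8.49 CPM at week 1 and 4.42 and 4.23 CPM at week 3 (log2 −0.90 ± 0.23, adjusted p = 0.0119), a call lost under DESeq2 and without 1-week replicate 2 or 3-week replicate 2. The guanylate-binding protein genes Gbp2, Gbp3 and Gbp7 and Irgm1 were not called, and Gbp2 had its highest value at week 3, at 7.59 and 11.1 CPM beside 6.33 to 9.32 CPM in the others.

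Of the 3 Schlafen genes, a family tied to the growth of lymphoid and myeloid cells, Slfn5 and Slfn8 were lower at week 3. Slfn1 was not called. Over all genes tested, 9.42% were lower at week 3 than naive and 9.56% lower than at week 1. Slfn8 had 11.8 and 18.9 CPM in naive mice, 11.5 and 9.39 CPM at week 1, and 3.8 and 5.45 CPM at week 3. It was 3.31 times lower than naive (log2 −1.73 ± 0.26, adjusted p = 4.57e-04) and 2.25 times lower than week 1 (adjusted p = 0.00642, lost without 3-week replicate 1), and shares 14.6% of its 50-base sequences with Slfn9 and a pseudogene. Slfn5 fell by 1.62 ± 0.45 and 1.47 ± 0.45 on the log2 scale (adjusted p = 0.0218 and 0.0323), with 9 and 31 counts at week 3 beside 45 to 78 counts in the other libraries. Both of its calls were lost without naive replicate 2 or 3-week replicate 1, that against naive also without naive replicate 1 and that against week 1 without 1-week replicate 1. The log2 fold changes were −0.98 and −0.83 without 3-week replicate 1, and −2.74 and −2.60 without 3-week replicate 2. Of its 50-base sequences, 10.9% are shared, mainly with the antisense gene Slfn5os. Slfn1 did not pass the test, and its values at week 3 were 187 and 225 CPM beside 152 to 181 CPM in the others (adjusted p = 0.114 and 0.118).

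Among the other effectors, Ifi27l2a (ENSMUSG00000079017, chr12:103442167-103443680), a small membrane protein gene, had 85.9 and 119 CPM in naive mice, 116 and 117 CPM at week 1, and 25.1 and 44.8 CPM at week 3. It was 2.94 times lower than naive (adjusted p = 2.85e-04) and 3.32 times lower than week 1 (adjusted p = 1.13e-04). Rtp4, a chaperone of cell-surface receptors that also blocks viral replication, had 145, 158, 128 and 109.6 CPM in naive and 1-week mice and 44.7 and 85.9 CPM at week 3 (log2 −1.21 ± 0.22 and −0.87 ± 0.22, adjusted p = 0.00159 and 0.0121). The call against week 1 was lost without 1-week replicate 1 or 3-week replicate 1 and under DESeq2, with an adjusted p of up to 0.107 over the alternatives. Bst2, the tetherin gene, rested on 5 and 7 counts at week 3 beside 16 to 30 counts elsewhere (log2 −2.16 ± 0.58 against naive and −1.80 ± 0.59 against week 1, adjusted p = 0.0183 and 0.0421). The calls were lost without naive replicate 2 or either 3-week library, and that against week 1 also under DESeq2, with only the 2 groups compared, and without naive replicate 1 or 1-week replicate 2, where the log2 fold change was −1.22. Xaf1, which encodes a partner of an apoptosis inhibitor, was lower at week 3 than at week 1 (−0.48 ± 0.14, adjusted p = 0.0239), a call lost under DESeq2 and without 1-week replicate 1 or either 3-week library, and was not called against naive. Ifi44, Parp14 and Phf11d were not called.

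Sp100, a gene of nuclear bodies, had another order of levels from Rsad2. It had 518 and 425 CPM in naive mice, 348 and 352 CPM at week 1, and 312 and 359.5 CPM at week 3. It was lower at week 3 than in naive mice (−0.49 ± 0.13, adjusted p = 0.0145), missed the threshold at week 1 (−0.43 ± 0.13, adjusted p = 0.0532), and the libraries of weeks 1 and 3 overlapped. Without naive replicate 2, or without either 3-week library, the difference at week 1 was called. The call at week 3 was lost without naive replicate 1 or 3-week replicate 1 (adjusted p up to 0.115 over the alternatives). Of its 50-base sequences, 5.75% occur in other annotated genes.

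Trim30a (ENSMUSG00000030921, chr7:104409025-104465193), a TRIM protein that restrains Toll-like receptor signaling, was the single gene called higher. It had 119 and 143 CPM in naive mice, 109.8 and 96.3 CPM at week 1, and 222 and 207 CPM at week 3. The 3-week libraries were above all others, by 0.71 ± 0.13 against naive (adjusted p = 0.00143) and 1.06 ± 0.13 against week 1 (adjusted p = 7.55e-05). The calls held under all 12 alternatives. It shares 5.98% of its 50-base sequences with its relative Trim30d, which with Trim30b was higher at week 3 than at week 1, by 0.49 ± 0.14 and 1.49 ± 0.18. Unlike Trim30a, neither was called at week 3 against naive (0.02 ± 0.14 and 0.24 ± 0.17, adjusted p = 0.94 and 0.364). Trim30b was called lower at week 1 than in naive mice (−1.24 ± 0.18, adjusted p = 0.00185). The call of Trim30d was lost without either 1-week library or 3-week replicate 2.

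Cxcl10, the chemokine that draws activated T cells, had the largest estimate and few reads. It had 38 and 41 counts in naive mice, 85 and 55 at week 1, and 2 and 22 at week 3. In CPM these were 3 and 3.35, then 5.67 and 4.1, then 0.155 and 1.69. The log2 fold change was −2.39 ± 0.57 against week 1 (adjusted p = 0.00902) and −1.77 ± 0.59 against naive (adjusted p = 0.049). The call against week 1 was lost without 1-week replicate 1 (adjusted p up to 0.0579), and that against naive without either naive library, 1-week replicate 1 or 3-week replicate 1. Against week 1 the log2 fold change was −1.51 without 3-week replicate 1 and −4.89 without 3-week replicate 2, and against naive −0.90 and −4.27. At this depth 3 counts corresponded to 0.2 to 0.245 CPM, and such limits cover counting error only.

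The 2 libraries of week 3 differed from each other in one direction. Of the 39 genes, 35 were higher in replicate 2 than in replicate 1, with a median log2 difference of 0.38, beside 0.01 for all genes tested. The libraries of the other groups also differed. In naive mice 32 genes were higher in replicate 2, with a median of 0.26, and at week 1 30 genes were lower in replicate 2, with a median of −0.17, beside −0.01 and 0.00 for all genes. The range was widest at week 3, from −0.30 for Stat2 to 3.16 for Cxcl10. At week 3, 6 genes differed by over 2-fold between both libraries (15.4%, beside 7.05% of all genes): Cxcl10 (3.16), Gbp3 (2.04), Ifit1 (1.83), Slfn5 (1.72), Ifit3 (1.53) and Oasl1 (1.19). Gbp3 rested on 3 and 14 counts. Trim30a (−0.10), Xaf1 (0.03) and Ifi44 (0.07) hardly differed. With both 3-week libraries taken singly, the median of the 39 against the mean of the naive libraries was −0.93 in replicate 1, with 36 genes below it, and −0.52 in replicate 2, with 33 below. Depth was alike in these libraries, at 14127919 and 13970977 counts.

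**Figure D4:**
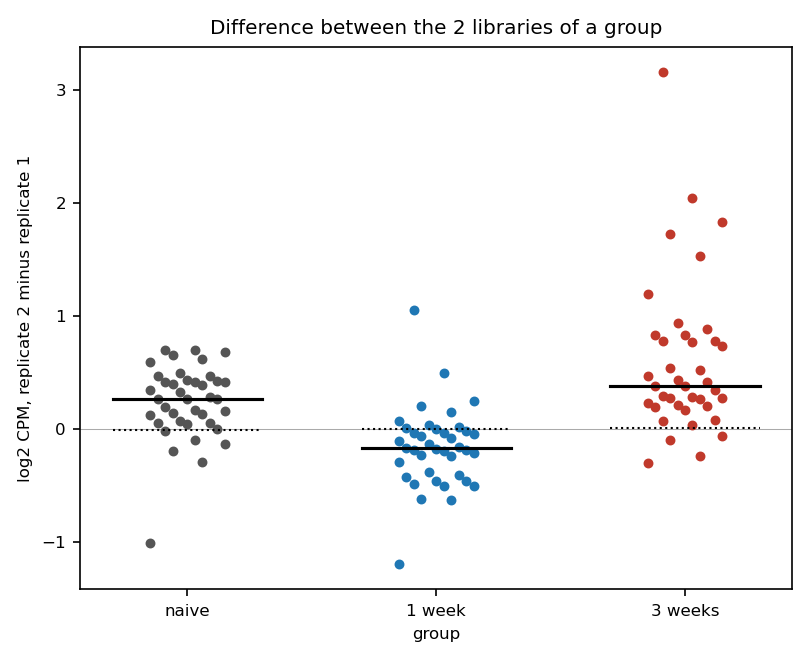
Difference in log2 CPM between replicate 2 and replicate 1 (y axis) for each of the 39 genes (points) in each group (x axis), with the median of the 39 (solid line) and of all genes tested (dotted line). At week 3 the median is 0.38 and 6 genes exceed 1.

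Markers of other cells moved with the groups. The 8 neutrophil markers summed to 235902 to 272781 CPM in naive and 1-week mice and to 316494 and 299406 CPM at week 3, mostly S100a8 and S100a9, whereas the Ly6g transcript itself had 6 to 32 counts. The 9 markers of plasmacytoid dendritic cells, which make much interferon, summed to 127 and 119.6 CPM in naive mice, 92.7 and 94.3 CPM at week 1, and 75.1 and 71.1 CPM at week 3. Bst2, a gene of the main list, and Irf8 are also on that list. Of the 9, Ly6d and Bst2 had both 3-week libraries far below the others, with 243 and 360, 357 and 286, and 66 and 49 counts of Ly6d, which was called lower at week 3 in both comparisons. Siglech had 83 and 58, 37 and 25, and 60 and 51 counts. It was called lower at week 1 than in naive mice (log2 −1.38, adjusted p = 0.0185). From week 1 to week 3 it was called higher (log2 0.98, adjusted p = 0.0427). Irf8 had 54.9 and 43.7 CPM in naive mice, 29.8 and 31.1 CPM at week 1, and 36.7 and 29.1 CPM at week 3. Tcf4 and Runx2 were not called in any comparison, and Ccr9, Cox6a2 and Klk1 had 0 to 12 counts in every library. The 8 B-lineage markers were 58.3, 47.6, 58 and 46.8 CPM in the naive and 1-week libraries, and 14.2 and 12.4 CPM at week 3. The 8 monocyte and macrophage markers summed to 754 to 964 CPM without order between groups, of which Ly6c2 made 582 to 795 CPM. Cx3cr1, of this list, had 8.3 and 9.4 CPM in naive mice and 2.87 and 3 CPM at week 3, called lower in both comparisons. Adgre1 was lower at week 3 than at week 1 (log2 −0.59, adjusted p = 0.0238). The 6 markers of early granulocyte precursors were at 140.4 to 204 CPM in the naive and 1-week libraries and at 301 and 401 CPM at week 3. Among them Cebpe went the other way, from 87.4 to 111 CPM to 44.3 and 46.6 CPM, and was called lower in both comparisons. The 7 erythroid markers, at 1315 and 563 CPM, differed between the 3-week libraries themselves. The 7 markers of conventional dendritic cells were at 121 to 147 CPM in naive and 1-week mice and 84.6 and 85.8 CPM at week 3. Of these, H2-Aa, H2-Ab1 and Cd74 were called lower at week 3 in both comparisons. Flt3 and Xcr1 were not called in either (0.05 and −0.04 on the log2 scale against naive). The 8 markers of T and NK cells were at 13.8 to 24.2 CPM, then at 8.6 and 11.1 CPM. Of these, 2 of 8 were at or below 3 counts in every library. Cd3d was called lower in both comparisons. Nkg7 went from 1.98 and 2.45 CPM in naive mice to 6.2 and 7.22 CPM at week 3, a rise that was called (adjusted p = 0.0115). The 6 markers of eosinophils, basophils and mast cells were at 21.8 and 26.1 CPM in naive mice. They were at 41 and 44.9 CPM at week 1, and 17.4 and 22.9 CPM at week 3. Prg2, Mcpt8 and Cpa3 were called higher at week 1 than in naive mice and lower at week 3 than at week 1. Siglecf was called higher at week 3 than at week 1 (log2 1.52, adjusted p = 0.0117). The 6 of proliferation were at 319 to 395 CPM, then 201 and 215 CPM. Mki67, Top2a and Cdk1 were called lower at week 3 in both comparisons, Ccnb1 only against week 1, and Ccna2 and Rrm2 in neither. Top2a was also lower at week 1 than naive (log2 −0.59, adjusted p = 0.0147). Fewer cells of a type and less RNA per cell cannot be told apart in bulk libraries, and the part of any of these cells in the fall of interferon-stimulated genes was not tested.

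Reads of the interferon ligands were few or none. Of 17 ligand genes in the table, 16 had 0 counts in all 6 libraries, which allows a level of up to 3 counts in each, and Ifng had 1, 0, 3, 4, 0 and 0. Of 6 receptor genes, 4 were higher and 1 was lower at week 3 than at week 1, 3 were higher and 1 lower than in naive mice, and 0 were called at week 1. The shares of all genes tested were 13.0% higher and 9.56% lower in the first of these comparisons, and 12.0% and 9.42% in the second. Ifngr1 (interferon gamma receptor) had 87 and 81.8 CPM in naive mice, 56.7 and 68.5 CPM at week 1, and 227 CPM in both 3-week libraries, a rise of 1.43 ± 0.12 against naive (adjusted p = 5.58e-06) and 1.86 ± 0.13 against week 1 (adjusted p = 6.05e-07). Ifnar2, Il10rb and Ifngr2 were higher at week 3 than at week 1 by 0.63 ± 0.12, 0.52 ± 0.12 and 0.40 ± 0.12. Ifnlr1, of the lambda receptor, was lower by 0.37 ± 0.12, and Ifnar1 was not called (0.50 ± 0.19, adjusted p = 0.0786). The calls of Ifngr1 and Ifnar2 against week 1 held without any single library. That of Il10rb was lost without 1-week replicate 1, that of Ifnlr1 without any library of weeks 1 or 3, and that of Ifngr2 without any of those or naive replicate 1. Against naive, the call of Ifngr1 held without any library, that of Il10rb was lost without each of the 6 and under DESeq2, that of Ifnar2 without each other than 3-week replicate 1, and that of Ifnlr1 without any naive or 3-week library.

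Some of the Irf genes outside the list also differed between groups. Shares of all genes tested were 4.23% higher and 3.76% lower at week 1 against naive. At week 3 they were 12.0% and 9.42% against naive, and 13.0% and 9.56% against week 1. Irf8 was lower than naive at week 1 by 0.70 ± 0.15 and at week 3 by 0.58 ± 0.15. Irf2 was lower at week 1 than naive by 0.68 ± 0.11 and higher at week 3 than at week 1 by 0.35 ± 0.11. Irf3 was lower at week 3 than at week 1 by 0.55 ± 0.18, and Irf5 was lower at week 3 than naive by 0.65 ± 0.17. Jak1, Jak2, Tyk2 and Irf1 were not called in any comparison. The call of Irf2 at week 1 held under all 12 alternatives. Those of Irf3, and of Irf2 between weeks 3 and 1, were lost without any library of weeks 1 or 3 (Irf2 also without naive replicate 1), that of Irf5 without naive replicate 2 or 3-week replicate 2, and those of Irf8 without naive replicate 1, either 1-week library (week 1) or 3-week replicate 2 (week 3).

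Among 7 negative regulators, 2 were higher and 1 lower at week 3 than at week 1 (13.0% and 9.56% of all genes), and 2 higher and 2 lower than in naive mice (12.0% and 9.42% of all genes). Socs3, an inhibitor of cytokine receptor kinases that is itself a target of Stat3, had 23.6 and 35.5 CPM in naive mice, 22.6 and 22.7 CPM at week 1, and 155 and 169 CPM at week 3 (2.84 ± 0.17 against week 1, adjusted p = 3.38e-07). The phosphatase gene Ptpn1 had 413 and 438, 363 and 363, and 701 CPM in both 3-week libraries. Socs1, an inhibitor that interferon induces, fell from 19.1 and 20.3 CPM in naive mice to 8.6 and 9.45 CPM at week 3 (−1.13 ± 0.18, adjusted p = 7.23e-04). Of 12 genes that lead to interferon production, with the same shares over all genes, 2 were higher and 1 lower at week 3 than in naive mice, and 3 were higher at week 3 than at week 1, with Myd88 first (1.28 ± 0.11, adjusted p = 7.42e-06) and then Irak4 and Tmem173, and Cgas was lower (−0.81 ± 0.20, adjusted p = 0.00974). The calls of Tmem173 and Cgas were lost without 1-week replicate 1 or 3-week replicate 1.

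A further list of 70 interferon-stimulated genes that were tested held 23 genes lower at week 3 than at week 1 (32.9%, beside 9.56% of all genes) and 10 higher (14.3%, near the 13.0% of all genes), with a median of −0.49. Against naive, 23 were lower (32.9%, beside 9.42%) and 9 higher (12.9%, near the 12.0% of all genes), with a median of −0.38, and at week 1 against naive 4 were lower and 2 higher (5.71% and 2.86%, beside 3.76% and 4.23% of all genes), with a median of 0.05. Those lower at week 3 than at week 1 included Ifit1bl2, of the IFIT family (−1.96 ± 0.25), and the DNA sensor gene Ifi204 (−1.36 ± 0.19). Of those higher, the 3 with the smallest adjusted p-values encode interferon-induced transmembrane proteins, a family that can block virus entry. Ifitm1 had 138 and 249 CPM in naive mice, 119 and 199 CPM at week 1, and 2785 and 2322 CPM at week 3, a rise of 4.01 ± 0.28 on the log2 scale against week 1 (adjusted p = 7.85e-07). Ifitm2 rose by 1.95 ± 0.19 and Ifitm6 by 1.36 ± 0.14 in the same comparison. Ifitm3, of the same family, was not called against week 1 (0.30 ± 0.13, adjusted p = 0.13) or naive (0.34 ± 0.13, adjusted p = 0.087). It had 462 and 617 CPM in naive mice and 704 and 665 CPM at week 3.

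**Figure D5:**
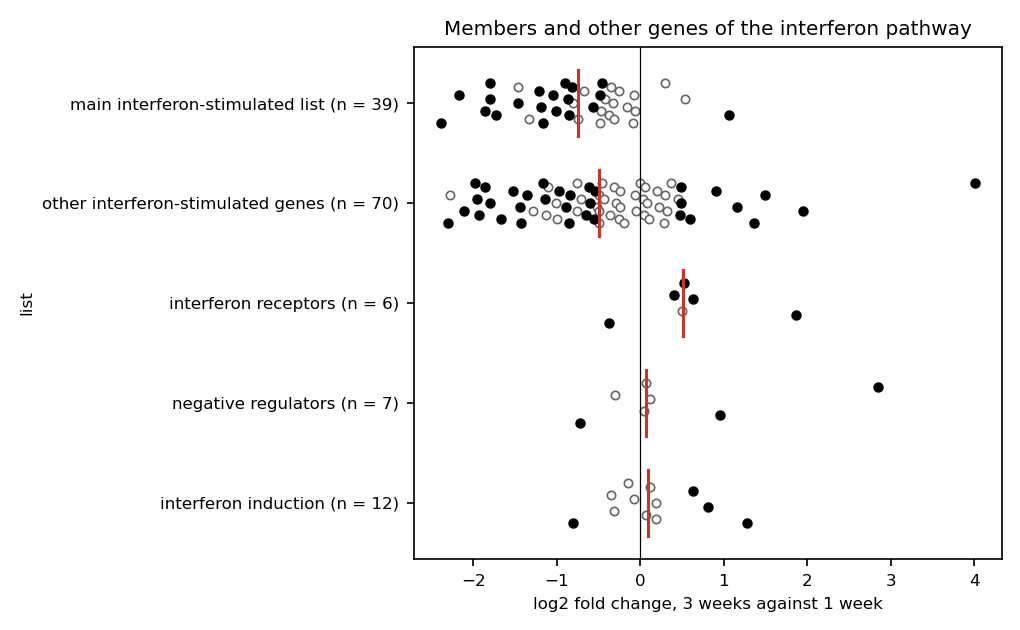
Log2 fold change of week 3 against week 1 (x axis) of single genes (points; filled where adjusted p was under 0.05) by list (rows), with list medians as red bars. The main list has its median at −0.75 and the further list at −0.49, and the rightmost point is Ifitm1 at 4.01.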

How the data were processed

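RNA-seq libraries of Ly6G-selected BM neutrophils were analysed, 2 each from naive, 1-week and 3-week LL2 mice. The authors deposited expected counts per Ensembl gene, estimated by RSEM with Bowtie2 against mm10, as whole numbers without scaling between libraries. The submitters' processing notes name RSEM 1.2.31. Totals were 11994158 to 14127919 counts per library. Of 38887 identifiers, 37570 matched the GENCODE annotation of GRCm38. The members and the other lists were chosen with earlier results of these data known, and no list was tested as a set. Genes with low counts were removed by filterByExpr. The 6 libraries entered a single model by group after TMM scaling (edgeR 4.0.16, quasi-likelihood test; R 4.3.3), with Benjamini-Hochberg adjustment. P-values measure the spread between 2 mice per group. Alternatives were DESeq2 1.42.0, its size factors, library size alone, no filter, only the groups compared, a replicate block, and each library left out. All members are described. Of the other pathway genes, receptors, kinases and Irfs were named, and up to 3 called genes with the smallest adjusted p-values per list and comparison; of these some are left out, one item is not reported here, and Trim30b, Trim30d and Ifit3b were added as relatives of members, and Ly6d and Cebpe among cell markers, after their values were seen. Other single genes named among cell markers, and Ifitm3, were likewise chosen after their values were seen. Read sharing is the share of a gene's distinct 50-base transcript sequences found in other genes. The test was tried on simulated counts. It kept its error rate where the dispersion followed the fitted trend, and exceeded it where each gene kept its own estimated dispersion. The pass mark of that test was moved from the second case to the first after the second had failed, so calls near the threshold are less certain than their adjusted p-values state.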

Additional observations from a re-analysis of the deposited data

How the results depend on the processing

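Groups of 2 mice limit every result here, and of the libraries left out, 3-week replicate 1 lowered the counts at week 3 the most. The number of genes called ran from 0 to 1 at week 1, from 11 to 19 at week 3 against naive and from 10 to 19 at week 3 against week 1 when each library was left out in turn, and the number called lower from 0 to 1, from 10 to 18 and from 9 to 18. Medians ran from −0.12 to 0.13, from −1.02 to −0.53 and from −0.91 to −0.46. Calls that held under all 12 alternatives numbered 11 of 19 against naive and 8 of 20 against week 1. At week 1, DESeq2, its size factors, no filter and the 2 groups alone each called 1 gene, Sp100, as lower, and DESeq2 gave an adjusted p-value for 37 of the 39. DESeq2 called 14 genes between weeks 3 and 1, where edgeR called 20. Scaling by library size alone moved the median of all genes from 0.03 to −0.11 at week 3 against naive and from −0.02 to −0.22 against week 1, and of all genes it called 890 higher and 1672 lower against naive, where TMM gave 1472 and 1155, and 859 and 2133 against week 1, where TMM gave 1588 and 1172. The median of the 39 was then −0.74 and −0.95. A block for the replicate number gave 0, 19 and 21 calls, where the fit without it gave 0, 19 and 20, and deviations of same-numbered libraries correlated at 0.0101, 0.0364 and 0.0379, so the numbers were not used as a pairing. With 1 mismatch allowed, 89.5% of the promoter windows held the response element core, beside 35.4% of all windows.

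Signs turned only for genes that were not called in that comparison. At week 1 against naive, library size alone gave Ddx58 0.01, Ifih1 0.00, Oas2 0.02 and Irgm1 0.05, and Slfn1 was −0.02 with DESeq2 and −0.01 with its size factors. At week 3 against naive, library size alone gave Stat2 0.00 and Zbp1 −0.07. With each library left out, log2 fold changes of week 1 against naive ranged for Usp18 −0.05 to 0.54, Ddx58 −0.14 to 0.04, Ifih1 −0.28 to 0.13, Zbp1 −0.04 to 0.37, Eif2ak2 −0.27 to 0.13, Ifit1 −0.41 to 0.29, Ifit2 −0.27 to 1.07, Ifit3 −0.15 to 0.47, Oas2 −0.12 to 0.05, Oasl1 −0.22 to 0.25, Oasl2 −0.34 to 0.13, Herc6 −0.22 to 0.48, Igtp −0.11 to 0.22, Irgm1 −0.21 to 0.22, Slfn1 −0.12 to 0.14, Slfn5 −0.50 to 0.13, Ifi44 −0.35 to 0.17, Ifi27l2a −0.04 to 0.43, Bst2 −0.97 to 0.09 and Parp14 −0.05 to 0.15. At week 3 against naive they ranged for Stat2 −0.18 to 0.50, Zbp1 −0.15 to 0.30, Gbp2 −0.09 to 0.45 and Gbp3 −1.02 to 1.15. At week 3 against week 1 they ranged for Zbp1 −0.22 to 0.07, Oas2 −0.17 to 0.00, Gbp7 −0.42 to 0.09 and Sp100 −0.15 to 0.05. The cause was not tested.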
